A study of Rattus norvegicus with 24 samples.

Results

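The genes described here are 5 chains of the fibrillar collagens (Col1a1, Col1a2, Col3a1, Col5a1 and Col5a2), the network collagen Col8a1 and 4 lysyl oxidases (Lox, Loxl1, Loxl2 and Loxl4). They were taken by gene symbol, 10 genes of 14324 with a single symbol on the array, and each was measured by 1 transcript cluster, the group of probe sets that stands for a gene. Signal was measured on 24 Affymetrix rat gene arrays, 1 of renal cortex and 1 of renal medulla from each of 12 male Wistar rats. The 6 lithium-fed rats received a diet with 40 mmol lithium per kg food for 7 days and 60 mmol per kg thereafter, with a salt block. The 6 control rats received a standard diet, and all were killed after 6 months. Each sample was a piece of tissue dissected from kidney that had been frozen and partly thawed, and so holds tubules, vessels and interstitial cells together. In such bulk samples fewer cells of a type and less RNA per cell cannot be told apart.

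Fibrillar collagens are made as procollagen chains that fold into a triple helix in the endoplasmic reticulum, are trimmed by proteinases outside the cell and pack side by side into fibrils. Lysyl oxidases are copper enzymes that oxidise lysine residues of collagen and elastin, and the reactive groups formed in this way join neighbouring molecules by covalent crosslinks. In the kidney the fibrillar chains are made mainly by fibroblasts, pericytes and myofibroblasts of the interstitium, and their accumulation is the hallmark of interstitial fibrosis. Col1a1 and Col1a2 encode the alpha chains of type I collagen, the main fibre of scar tissue. Col3a1 encodes type III collagen, which forms mixed fibrils with type I. Col5a1 and Col5a2 encode chains of type V collagen, which lies inside the fibrils and sets their width. Col8a1 encodes a short-chain collagen of vessel walls and other basement membranes that forms networks in place of fibrils.

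Values are log2 signal intensities as deposited, from which the scan date of the arrays had been removed. The groups of arrays scanned together (scan groups) were recovered from the values, 4 in cortex and 3 in medulla, and were kept as a term in the comparison of the diets. The cortex array of lithium rat 17 was alone in its scan group and equalled the mean of the other lithium cortex arrays, with differences of at most 8e-05. It carried no information of its own, and standard deviations of the lithium cortex group are over n = 5. Array medians lay between 5.753 and 5.826 in cortex and between 6.121 and 6.224 in medulla. The proximal tubule transporter Slc34a1, a marker of cortex, averaged 12.04 ± 0.186 in lithium and 12.08 ± 0.0842 in control cortex, and 8.16 ± 0.601 in lithium and 9.29 ± 0.522 in control medulla. The sources used here do not say whether the tissues were normalised together, and levels in the 2 tissues are given side by side only.

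The first question was whether the diet changed these genes in either tissue. No gene of the 10 passed the threshold of 0.05 for the adjusted p in either tissue. In cortex 8 of the 10 genes passed the expression filter (4 or more of the 12 arrays at a log2 value of 6 or above) and none was called, where 0.574% of all 13766 clusters tested were called (limma, Benjamini-Hochberg, 79 clusters). At an unadjusted p under 0.05 there was 1 gene of the 8, Loxl4, where 7.54% of all clusters stood. In medulla all 10 were tested and none was called, where 1.19% of 16025 clusters were (190 clusters). At an unadjusted p under 0.05 there were 5 of 10, against 19.6% of all clusters. These 5 were Col1a1, Col8a1 and Loxl1, with higher values in lithium medulla, and Loxl2 and Loxl4, with lower values there. Col8a1 passed the filter in medulla only through lithium arrays, with 4 of 6 at 6 or above and none of 6 control arrays, and so could be tested only because it was higher there. The 8 genes tested in cortex had a median log2 fold change (lithium over control) of 0.26, and all 8 lay above 0, as did 52.9% of all clusters, whose median was 0.0104. Without lithium rat 19 the median of the 8 was -0.07 and 2 lay above 0. In medulla the median of the 10 was 0.18 with 6 above 0, as were 48.4% of all clusters, whose median was -0.00862.

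**Figure D1:**
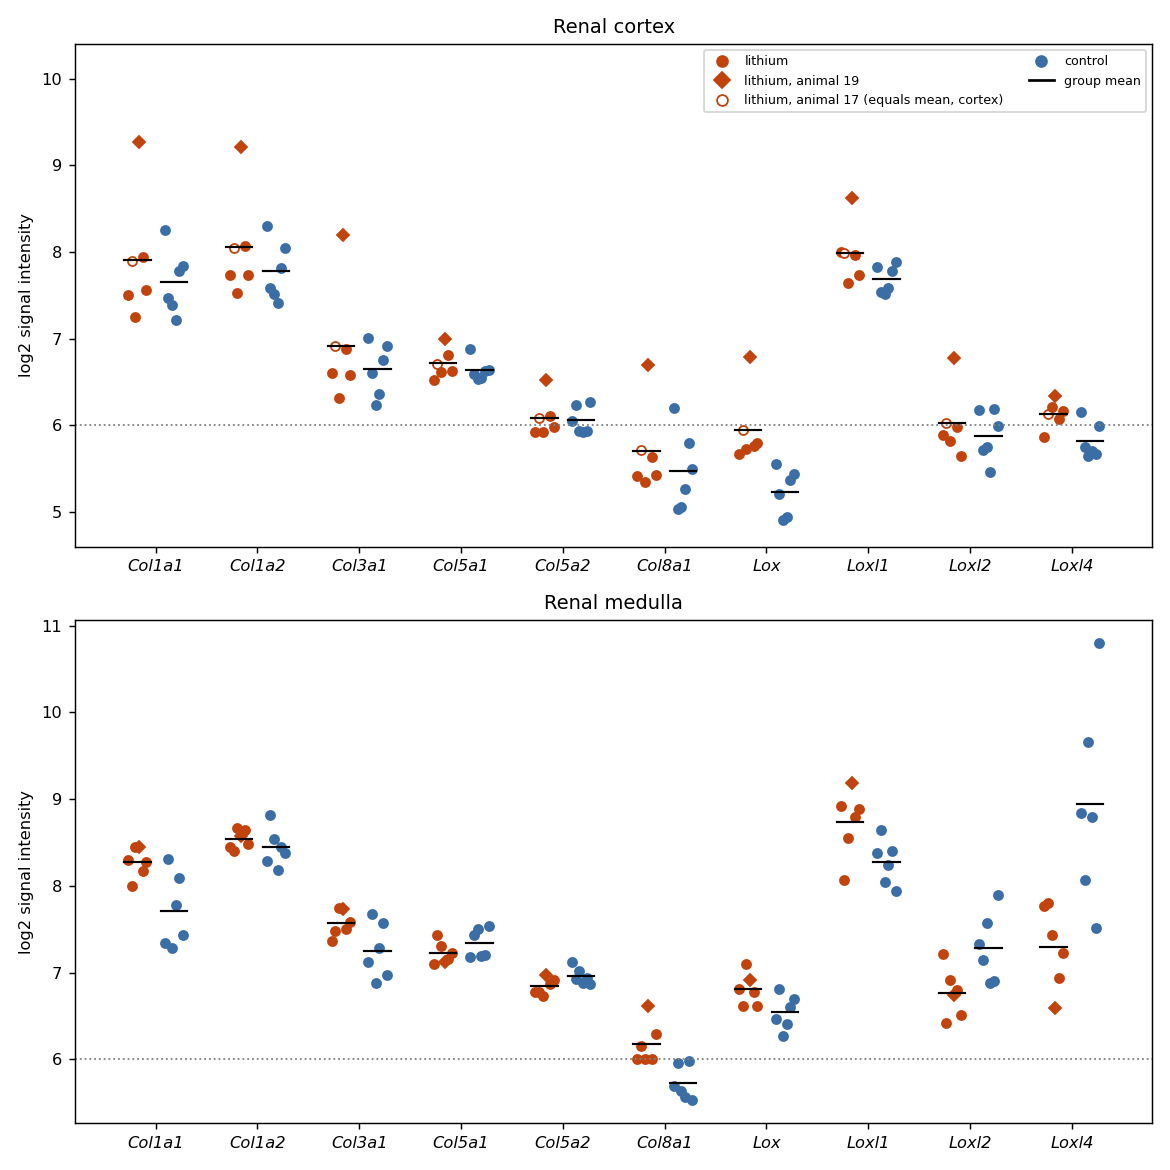
Log2 signal intensity of the 10 genes on each array of renal cortex (top) and renal medulla (bottom), with lithium arrays left of control arrays for every gene, a black line at the group mean and a dotted line at the filter value of 6. In cortex the array of lithium rat 19 (diamond) lies at the top of every gene, and the open circle of rat 17 lies at the group mean, while in medulla the groups are set apart most for Loxl4, with lithium values of 6.59 to 7.80 and control values of 7.51 to 10.80.

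The type I collagen chains in cortex were set apart by a single array. Col1a1 was at 9.27 in the cortex of lithium rat 19, while the lithium rats 6, 18, 21 and 22 had 7.50, 7.25, 7.94 and 7.56. The control cortex arrays ranged from 7.21 through a median of 7.63 to 8.25. Apart from the array of rat 19, all lithium values lay within the range of control. The log2 fold change was 0.25 (SE 0.334, 95% confidence interval -0.48 to 0.98, adjusted p = 0.896 by limma), and without rat 19 it was -0.14 (SE 0.15). Col1a2 had 9.21 in rat 19 and 7.73, 7.53, 8.07 and 7.73 in the lithium rats 6, 18, 21 and 22. In control cortex Col1a2 ranged from 7.41 through 7.71 to 8.30. Its log2 fold change was 0.27 (SE 0.288, adjusted p = 0.869 by limma), and -0.06 without rat 19, so that the direction of both chains depended on this array.

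Rat 19 was also the highest array for the other fibrillar chains of the cortex. Col3a1 was at 8.20 in rat 19, at 6.60, 6.32, 6.88 and 6.58 in the lithium rats 6, 18, 21 and 22, and between 6.24 and 7.01 in control cortex, with a control median of 6.67. Its log2 fold change of 0.27 (SE 0.304, adjusted p = 0.876) became -0.10 without rat 19. The type V chains varied less from array to array. Col5a1 was at 7.00 in rat 19 and between 6.52 and 6.81 on the other lithium arrays, against 6.54 to 6.88 in control cortex. Col5a2 was at 6.52 in rat 19 and between 5.92 and 6.11 on the other lithium arrays, against 5.92 to 6.27 in control cortex. Their log2 fold changes were 0.08 (SE 0.111) and 0.03 (SE 0.131), and -0.01 and -0.09 without rat 19. None of the 5 fibrillar chains had a positive fold change in cortex once rat 19 was left out, while their median with all arrays was 0.25. In the fit without scan group and without rat 19, values of Col1a2, Col3a1 and Col5a1 were slightly above 0, at 0.04, 0.01 and 0.02, and those of Col1a1 and Col5a2 were -0.02 and -0.05.

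The network collagen Col8a1 did not pass the filter in cortex. It was at 6.70 in lithium rat 19 and between 5.35 and 5.64 in the lithium rats 6, 18, 21 and 22, against 5.04 to 6.20 in control cortex. In a fit of all 28894 clusters its log2 fold change was 0.23 (SE 0.284, adjusted p = 0.878 by limma).

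The array of rat 19 was the highest of the 11 informative cortex arrays in 10 of the 10 genes. Over all clusters it was the highest in 13%, and in 15.7% of those past the filter. It exceeded the control mean by 1.61 for Col1a1, 1.43 for Col1a2 and 0.36 for Col5a1. The mean of the lithium rats 6, 18, 21 and 22 differed from that of control by -0.09 for Col1a1, by -0.02 for Col1a2 and by -0.05 for Col3a1. In the scan group that held rat 19 the lithium arrays exceeded the control arrays by 0.96 for Col1a1, whereas the differences in the other scan groups with both diets were -0.06 and -0.36. In the deposited values the deviations from the diet means sum to 0 within each scan group. The values of rats 15, 16 and 18, scanned with rat 19, were therefore not independent of its own. The scan group term in the fit allows for such a shared shift, while ranges and means of single arrays do not.

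Marker genes of several cell types moved with the array of rat 19. The mean of 12 fibroblast and pericyte genes was 8.11 in rat 19, between 6.41 and 6.88 on the other lithium cortex arrays and between 6.33 and 6.96 in control cortex. The mean of 9 myofibroblast and smooth muscle genes was 7.79 in rat 19, between 5.71 and 6.31 on the other lithium arrays and between 5.64 and 6.29 in control. The fibril-binding proteoglycan Lum, a fibroblast marker, was at 8.02 at most in lithium cortex, against 4.48 at most in control cortex. The mean of 9 macrophage genes was 8.06 in rat 19, against 6.21 to 6.87 in control cortex, and that of 11 proximal tubule genes was 10.48, against 10.81 to 11.11. Their part in the collagen values of rat 19 was not tested.

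**Figure D2:**
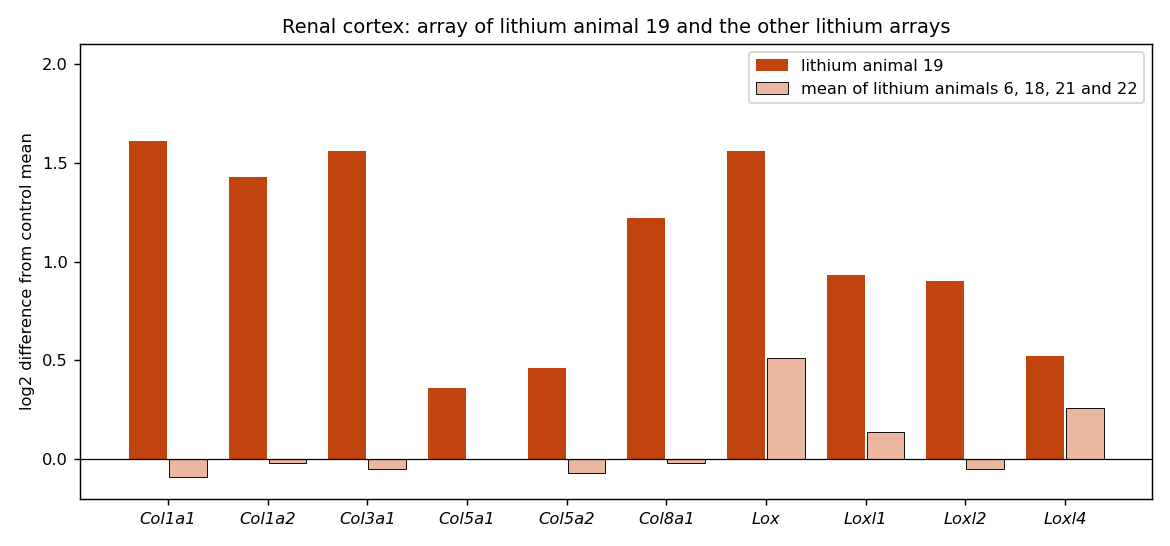
Difference from the control mean in renal cortex (log2) of the array of lithium rat 19 (dark bars) and of the mean of lithium rats 6, 18, 21 and 22 (light bars), for the 10 genes. The light bars of the collagens lie between -0.09 and 0.00, and that of Lox is at 0.51.

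Lox was the one gene of the 10 whose cortex arrays did not overlap between the diets. It encodes the founding member of its family, the secreted enzyme that crosslinks type I and type III collagen. Its values were 5.67, 5.73, 6.79, 5.76 and 5.80 in the cortex of the lithium rats 6, 18, 19, 21 and 22. In control cortex they were 5.55, 5.21, 4.91, 4.94, 5.37 and 5.44 in rats 1, 13, 15, 16, 29 and 30. All lithium values lay above all control values, with rat 19 farthest up, while the nearest values of the groups were those of lithium rat 6 and control rat 1. Control rats 15 and 16, the lowest, shared the scan group of rat 19, so that their values were not independent of its own. Among all clusters 2.09% had no overlap in cortex in either direction and 1.07% had none with lithium higher. An exact permutation test without rat 17, whose array carried no information, gave p = 0.00216 (2-sided, 462 exchanges, arrays exchanged across scan groups). With rat 17 counted, the same test gave the same p over 924 exchanges, which is no second result. This p is the smallest that the exchanges can give and follows from the lack of overlap. The test was 1 of 20 such tests over 10 genes and 2 tissues. Lox had a log2 value of at least 6 on only 1 cortex array, that of rat 19, and therefore stayed under the filter. In the fit of all 28894 clusters its log2 fold change was 0.72 (fold 1.64, SE 0.214, 95% confidence interval 0.25 to 1.18) with an adjusted p of 0.471 by limma, so that it was not called, where 0.221% of clusters were. The difference between the diets within scan groups was 1.34 in that of rat 19 and 0.37 and 0.29 in the others, and the mean of the 4 other lithium arrays exceeded that of control by 0.51. The mean of 9 epithelial injury genes lay between 6.94 and 8.29 in lithium cortex and between 5.89 and 6.44 in control cortex. Against 0.574% of all clusters past the filter, 5 of 8 tested were called, all higher in lithium. Their part in the Lox values was not tested.

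The Lox-like enzymes in cortex overlapped between the diets. Loxl1, which is needed for elastic fibre upkeep in mice, was at 8.00, 7.64, 8.62, 7.97 and 7.73 in the lithium rats 6, 18, 19, 21 and 22, against 7.51 to 7.89 in control cortex. The lithium rats 6, 19 and 21 lay above all control arrays, and the log2 fold change was 0.30 (SE 0.168, adjusted p = 0.738), or 0.12 without rat 19. Loxl2, which crosslinks type IV collagen of basement membranes, was at 6.78 in rat 19 and between 5.65 and 5.98 on the other lithium arrays, against 5.46 to 6.19 in control cortex. Its log2 fold change was 0.14 (SE 0.209, adjusted p = 0.91) and -0.07 without rat 19. At a log2 value of 6 or above were 1 of the 5 informative lithium arrays and 2 of 6 control arrays. Loxl2 thus passed the filter of 4 arrays only with that of rat 17 counted, at 6.03.

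Loxl4, a lysyl oxidase with scavenger receptor domains like Loxl2, depended less on rat 19 in cortex. Its values were 5.86, 6.21, 6.34, 6.07 and 6.16 in the lithium rats 6, 18, 19, 21 and 22, against 6.15, 5.75, 5.65, 5.70, 5.67 and 5.99 in the control rats 1, 13, 15, 16, 29 and 30. Lithium rats 18, 19 and 22 lay above all control arrays, and control rats 1 and 30 reached the lithium range. The log2 fold change was 0.31 (SE 0.126, 95% confidence interval 0.04 to 0.59, adjusted p = 0.598 by limma) and 0.25 (SE 0.126) without rat 19. Within scan groups the difference was 0.60, 0.29 and -0.09. At a log2 value of 6 or above were 4 of the 5 informative lithium arrays and 1 of 6 control arrays, so that Loxl4 passed the filter in cortex mainly through the lithium group.

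**Figure D3:**
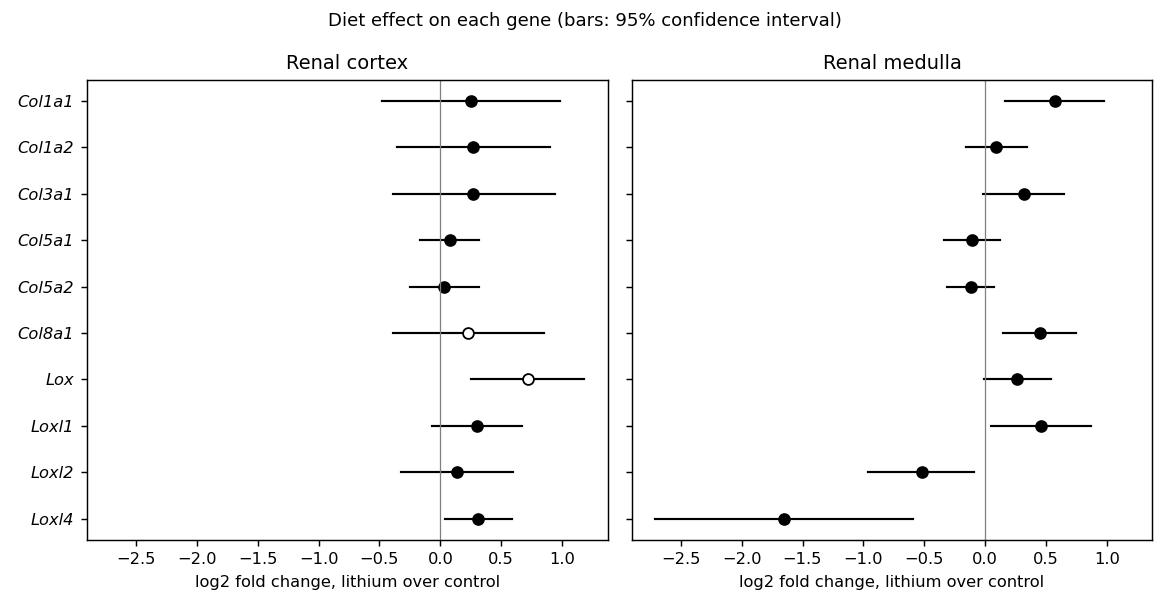
Log2 fold change of lithium over control for each gene in renal cortex (left) and renal medulla (right), with 95% confidence intervals from limma. Open circles mark Lox and Col8a1 in cortex, which did not pass the filter and are taken from the fit of all clusters, and the interval farthest from 0 is that of Loxl4 in medulla (-2.71 to -0.59).

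No fibrillar chain was called in medulla, and the fold changes of the 5 ran from -0.12 to 0.57. Col1a1 was at 8.30, 8.00, 8.45, 8.45, 8.17 and 8.27 in the lithium rats 6, 17, 18, 19, 21 and 22. In control medulla it was at 7.34, 8.31, 7.28, 7.78, 8.09 and 7.43 in rats 1, 13, 15, 16, 29 and 30. The lithium arrays lay close together at the upper end, while control rats 13 and 29 reached the lithium range. The log2 fold change was 0.57 (fold 1.48, SE 0.188, 95% confidence interval 0.16 to 0.98) with an adjusted p of 0.143 by limma. The difference was positive in all 3 scan groups, between 0.33 and 0.92, and the fold change ranged from 0.46 to 0.72 when each rat was left out in turn.

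Col1a2, whose product joins that of Col1a1 in the type I helix, was nearly level in medulla. It ranged from 8.40 through a median of 8.52 to 8.67 in lithium medulla and from 8.18 through 8.42 to 8.82 in control medulla. All lithium values lay within the control range, and the log2 fold change was 0.09 (SE 0.116, 95% confidence interval -0.16 to 0.34, adjusted p = 0.693). The signal of Col1a1 minus that of Col1a2 on the same medulla array averaged -0.26 in lithium rats, from -0.48 to -0.12, and -0.74 in control rats, from -1.26 to -0.36. These ranges overlapped, and in cortex the same difference averaged -0.15 in lithium and -0.13 in control rats. It is given as a description, since 2 probe clusters do not share a scale.

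Col3a1 in medulla ranged from 7.36 through 7.54 to 7.75 in lithium rats and from 6.88 through 7.20 to 7.68 in control rats. Lithium rats 18 and 19, at 7.75 and 7.73, lay above all control arrays, and the log2 fold change was 0.32 (SE 0.152, adjusted p = 0.275). The type V chains had lower means in lithium medulla. Col5a1 averaged 7.23 ± 0.127 in lithium and 7.34 ± 0.169 in control medulla (SD, n = 6 each), a log2 fold change of -0.11 (SE 0.106, adjusted p = 0.577 by limma). Col5a2 averaged 6.84 ± 0.0939 in lithium and 6.96 ± 0.0951 in control medulla (SD, n = 6 each), a log2 fold change of -0.12 (SE 0.0852, adjusted p = 0.462 by limma). Both had 3 lithium arrays below the lowest control array.

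Col8a1 was the one gene of the 10 whose medulla arrays did not overlap between the diets. It was at 6.00, 6.15, 6.00, 6.61, 6.00 and 6.29 in the lithium rats 6, 17, 18, 19, 21 and 22, against 5.69, 5.96, 5.63, 5.56, 5.98 and 5.53 in the control rats 1, 13, 15, 16, 29 and 30. The groups were all but touching, with 3 lithium arrays at 6.00 and the highest control array, of rat 29, at 5.98. Among all clusters 2.68% had no overlap in medulla in either direction and 1.72% had none with lithium higher. The exact permutation test gave p = 0.00216 (2-sided, 924 exchanges), the smallest it can give. It was 1 of the 20 such tests, with the arrays exchanged across scan groups. The log2 fold change was 0.45 (fold 1.37, SE 0.138, 95% confidence interval 0.15 to 0.75), with an adjusted p of 0.119 by limma. Without the scan group in the fit the adjusted p was 0.0473, a fit in which 6.56% of all clusters were called. Since only lithium arrays brought Col8a1 past the filter, its place among the tested clusters was itself set by the higher values, and its p-values are given as a description. In the fit of all clusters its adjusted p was 0.155. Without rat 19 the log2 fold change was 0.34. The mean of the 9 myofibroblast and smooth muscle genes lay between 6.60 and 6.79 in lithium medulla and between 6.32 and 6.52 in control medulla. Of the 6 tested none was called, 5 had positive fold changes and 3 had an unadjusted p under 0.05, where 19.6% of all clusters stood. Among the 3 were Tagln, a smooth muscle cytoskeletal gene, at 0.80 (adjusted p = 0.0751 by limma, 0.0248 without scan group) and Des at 0.52 (adjusted p = 0.113, 0.0433 without scan group). Postn did not reach a log2 value of 6 on any medulla array. The mean of 9 macrophage genes was 7.51 to 8.04 in lithium and 6.27 to 7.55 in control medulla. Against 1.19% of all clusters, 3 of 8 tested were called, all higher in lithium. Each of these calls was lost when any of 9 or 10 of the 12 rats was left out, rat 19 among them. The part of these cells in the Col8a1 values was not tested.

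No lysyl oxidase was called in medulla, with positive fold changes for Lox and Loxl1 and negative ones for Loxl2 and Loxl4. Lox was at 6.81, 6.61, 7.10, 6.92, 6.78 and 6.62 in the lithium rats 6, 17, 18, 19, 21 and 22, against 6.47, 6.81, 6.27, 6.41, 6.60 and 6.70 in the control rats 1, 13, 15, 16, 29 and 30. Its log2 fold change was 0.26 (SE 0.124, adjusted p = 0.267), and 2 lithium arrays lay above all control arrays. Loxl1 was at 8.92, 8.07, 8.55, 9.19, 8.79 and 8.89 in the lithium rats and ranged from 7.94 through 8.31 to 8.65 in control rats. Lithium rats 6, 19, 21 and 22 lay above all control arrays while rat 17 was among the low ones, and the log2 fold change was 0.46 (SE 0.189, adjusted p = 0.21 by limma). Without rat 17 it was 0.62.

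Loxl2 had lower values in lithium medulla. It was at 7.22, 6.42, 6.92, 6.74, 6.80 and 6.51 in the lithium rats 6, 17, 18, 19, 21 and 22, against 7.33, 7.15, 7.57, 6.88, 6.90 and 7.90 in the control rats 1, 13, 15, 16, 29 and 30. Lithium rats 17, 19, 21 and 22 lay below all control arrays, and control rat 30 was the highest. The log2 fold change was -0.52 (fold 0.697, SE 0.199, 95% confidence interval -0.96 to -0.09, adjusted p = 0.18 by limma), and within scan groups it lay between -0.75 and -0.40.

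Loxl4 differed most between the diets in medulla, and varied most among the control rats. It was at 7.77, 7.80, 7.43, 6.59, 6.94 and 7.23 in the lithium rats 6, 17, 18, 19, 21 and 22. In the control rats 1, 13, 15, 16, 29 and 30 it was at 8.84, 8.07, 9.66, 8.79, 7.51 and 10.80. Control rat 29 lay within the lithium range and the other control rats above it. The means were 7.29 ± 0.476 in lithium and 8.94 ± 1.17 in control medulla (SD, n = 6 each), and the log2 fold change was -1.65 (fold 0.318, SE 0.485, 95% confidence interval -2.71 to -0.59, adjusted p = 0.112 by limma). The exact permutation test gave p = 0.00649 (2-sided, 924 exchanges), as 1 of the 20 such tests and with the arrays exchanged across scan groups. Without the scan group in the fit the adjusted p was 0.0463, where 6.56% of clusters were called. Without control rat 29 the log2 fold change was -2.01 with an adjusted p of 0.0456, where 1.54% of clusters were called. Without control rat 30 it was -1.19, and within scan groups the difference was -0.67, -2.22 and -2.07.

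Genes of a papilla and thin limb list varied between the same arrays. Aqp1 of this list is also on the proximal tubule list, and Krt20 did not pass the filter. The mean of 12 papilla and thin limb genes was 10.10 in control rat 30, 9.97 in rat 1, 9.87 in rat 15 and 9.60 in rat 16, and 9.30 and 9.03 in the control rats 13 and 29, those with the lowest Loxl4 among the controls. In lithium medulla it lay between 8.96, in rat 19, which had the lowest Loxl4, and 9.47, in rat 21, whose Loxl4 was 6.94. Lithium rats 6 and 22 had the same mean of 9.18, with Loxl4 at 7.77 and 7.23. Among the lithium rats the order of the 2 values thus differed. It also differed between control rats 1 and 15, whose Loxl4 was at 8.84 and 9.66. Of 11 papilla and thin limb genes tested none was called and 3 had positive fold changes. With lower values in lithium, 4 had an unadjusted p under 0.05, where 19.6% of all clusters stood in either direction. The mean of 7 thick ascending limb genes ranged from 6.55 to 10.68 in lithium and from 7.70 to 11.53 in control medulla, so that arrays of the same diet were far apart in genes of this segment. Of 11 proximal tubule genes none had a positive fold change in medulla and none was called, and Slc34a1 had one of -1.13 (SE 0.31, adjusted p = 0.096). Of 5 endothelial genes 1 was called lower in lithium medulla, against 0.356% of all clusters called lower. List means were 8.23 to 8.94 in lithium and 8.82 to 9.37 in control rats. The call was lost when any of 10 of the 12 rats was left out, rat 19 among them. Of 4 tested genes of the podocyte list 1, Podxl, was called lower (-1.01), whereas the other 3 had positive fold changes and the list's median was 0.14. The Podxl call was likewise lost when any of 10 of the 12 rats was left out, rat 19 among them. Of 3 urothelial genes none was called. The part of these differences in the Loxl4 and Loxl2 values was not tested.

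**Figure D4:**
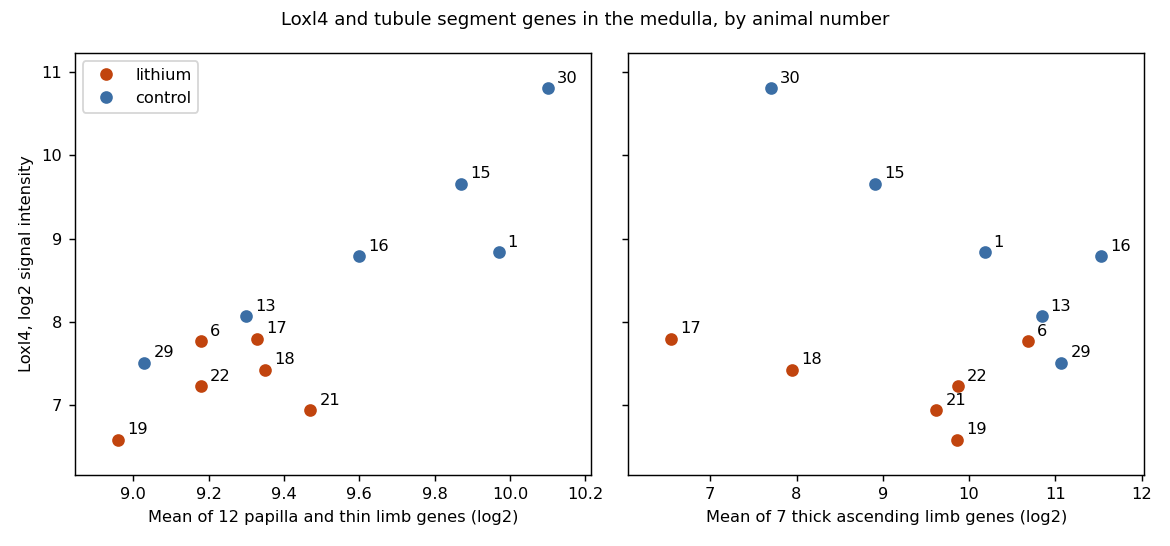
Loxl4 signal on each medulla array (vertical axis, log2) against the mean of 12 papilla and thin limb genes (left) and of 7 thick ascending limb genes (right), with rat numbers beside the points. Control rats 30, 15 and 1, at 10.80, 9.66 and 8.84, have papilla means of 10.10, 9.87 and 9.97, above every lithium array. Rat 1 thus has a higher papilla mean than rat 15 with a lower Loxl4. Control rats 13 and 29 lie among the lithium arrays on the papilla axis. Among the lithium arrays that of rat 21 has the highest papilla mean, 9.47, with Loxl4 at 6.94.

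The difference of the diet effect between the tissues was compared next, for the 8 genes that passed the filter in both. Loxl4 had the farthest estimate from 0. Its effect in medulla minus that in cortex was -1.96 (SE 0.559, 95% confidence interval -3.13 to -0.79, unadjusted p = 0.00231 and adjusted p = 0.227, limma interaction over 13403 clusters). It was not called, where 0.0821% of all clusters were, and without the scan group in the fit its adjusted p was 0.0366, where 2.04% were called. For Loxl2 the difference was -0.66 (SE 0.308, adjusted p = 0.394). The fibrillar chains had differences of 0.32 (SE 0.408) for Col1a1, -0.18 (SE 0.326) for Col1a2 and 0.05 (SE 0.359) for Col3a1. Each of these intervals included 0, and that of Col1a1 ran from -0.53 to 1.17.

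The genes that fold, trim and assemble collagen were read from lists. Of 16 named genes of collagen folding and modification 14 were tested in cortex. Against 0.574% of all clusters, 1 of the 14 was called there. This was P4ha1, which encodes the catalytic subunit of the prolyl 4-hydroxylase that stabilises the triple helix. It averaged 8.08 ± 0.0548 in lithium cortex (SD, n = 5), from 8.02 to 8.14, and 7.60 ± 0.118 in control cortex (SD, n = 6), from 7.41 to 7.72. It rose by 0.48 on the log2 scale (SE 0.0877, adjusted p = 0.0356 by limma), with no overlap between the groups. Among clusters past the filter in cortex 1.85% had no overlap with lithium higher, and 2.57% had none in either direction. The call was lost when any of 8 of the 12 rats was left out, with fold changes of 0.45 to 0.51 over the 12 and an adjusted p of at most 0.133, and also with centred arrays (0.0614) and without the filter (0.0599). Leaving out rat 17, whose cortex array carried no information, could not change the call. Without rat 19 it was kept, at 0.50. The list's median in cortex was 0.11, with 12 of 14 above 0.

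In medulla no gene of collagen folding was called among 15 tested, and the list's median was -0.21 with 3 above 0. At an unadjusted p under 0.05 there were 1 with higher and 4 with lower values in lithium, against 19.6% of all clusters in either direction. Serpinh1, the collagen chaperone HSP47, averaged 8.93 ± 0.159 in lithium and 8.45 ± 0.295 in control medulla (SD, n = 6 each), a log2 fold change of 0.48 with an adjusted p of 0.116 by limma. Crtap, a subunit of the prolyl 3-hydroxylation complex, averaged 8.34 ± 0.204 in lithium and 8.74 ± 0.106 in control medulla (SD, n = 6 each), a log2 fold change of -0.40 with an adjusted p of 0.0982 by limma. Both passed the threshold without the scan group, at 0.0443 and 0.0321, in a fit that called 6.56% of all clusters.

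Of 6 named genes of procollagen processing 4 were tested in medulla and 1 was called, against 1.19% of all clusters. Bmp1, the proteinase that removes the C-propeptide of procollagen and also activates lysyl oxidase, averaged 7.50 ± 0.226 in lithium medulla, from 7.09 to 7.72, and 6.79 ± 0.198 in control medulla, from 6.50 to 7.04 (SD, n = 6 each). It rose by 0.71 on the log2 scale (SE 0.133, adjusted p = 0.0329 by limma). The call was lost when any of 9 of the 12 rats was left out, with fold changes of 0.64 to 0.81 over the 12 and an adjusted p of at most 0.0974, that without rat 19. Tll1, a proteinase of the same family, had a log2 fold change of 0.58 (SE 0.151, adjusted p = 0.0818). Its adjusted p was 0.0274 without the scan group, a fit that called 6.56% of all clusters. Adamts2, which removes the N-propeptide of fibrillar procollagens, had one of 0.31 (SE 0.109, adjusted p = 0.157). All 4 tested were above 0, with a median of 0.45. In cortex 3 were tested and none was called. Of the other fibrillar collagens with Loxl3, 4 were tested in cortex and 6 in medulla, and of the fibril-associated and other collagens 4 and 5, with none called.

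The genes whose profiles over the 24 arrays lay nearest to Col1a1 and to Lox were looked up last. Each value was set against the control mean of its tissue, and the root-mean-square difference between the profiles of a pair of genes was taken on the log2 scale. Col3a1 was the nearest to Col1a1 of 8088 named genes, at 0.173, where the median over all genes was 0.587. Slpi (0.21), Adamts2 (0.214) and Sh2b2 (0.232) came next, while Col1a2 stood at rank 34 (0.305) and Loxl4 at rank 8072 (1.37). The nearest to Lox were Pde5a (0.211), Pnpla2 (0.218), Adamts2 (0.22) and Clip3 (0.231) of 8089 genes, where the median was 0.511. The distances hold the array of rat 19 and describe these arrays only.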

How the data were processed

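Total RNA of renal cortex and medulla was hybridised to Affymetrix arrays, named as rat exon arrays in the labels and as rat gene arrays in a passage of the methods. The authors deposited log2 intensities for 28894 clusters. Per the methods these came from Partek (RMA background correction, quantile normalisation, median polish), an analysis of variance was used to take out scan date, and probe sets were then averaged. The processing notes name rn4, and no coordinates were used. The platform annotation gave 15097 clusters 1 symbol, 323 several and 13474 none.

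Diet was tested in each tissue with limma 3.58.1 in R 4.3.3 (lmFit and eBayes), with scan group as a second term, and with Benjamini-Hochberg adjustment over all clusters past the filter. The sources used here give no scan dates. Scan groups were recovered as sets of arrays whose deviations from the diet means sum to 0, within 0.001. In cortex they were rats 15, 16, 18 and 19, rats 21, 22, 29 and 30, rats 1, 6 and 13, and rat 17 alone. In medulla rat 17 joined rats 1, 6 and 13. Leaving scan group out gives the same fold changes but counts too many degrees of freedom. Tested on simulated data, 5.17% of unchanged clusters had p below 0.05 in cortex with it and 12.1% without it, and 5.22% and 8.03% in medulla. Of the simulated clusters called, 2.98% were unchanged ones in cortex with it and 39.1% without it, and 8.43% and 19.4% in medulla. Cortex and medulla of a rat share its number in the labels. Over 11 rats the deviations of both tissues correlated between -0.0862 and 0.413, over 0.1 in 6, and an alternative fit took the rat as a replicate block. Exact permutation tests ran through every exchange of the arrays with numpy 2.4.6, and the confidence intervals used scipy 1.17.1.

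The 10 genes, the lists of collagen and cell type genes and the tests were chosen with earlier results of these data known. The text names every one of the 10 genes, every called gene of the collagen lists and the 4 nearest profiles to Col1a1 and to Lox. Slc34a1, Lum, Postn, Tagln, Des, Podxl, Serpinh1, Crtap, Tll1 and the fold change of Adamts2 lie outside it and were chosen after their values were seen. The number of arrays limits the precision. Alternatives were another or no filter, centring, repeated quantile normalisation, no scan group, the methods' t-test and leaving out each rat.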

Additional observations from a re-analysis of the deposited data

Results flagged for a closer look

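In the cortex of lithium rat 19, Lox was at 6.79, with the next lithium array at 5.80, and Col8a1 was at 6.70, with the next at 5.64. Each gap, divided by the range of the 5 informative lithium arrays, was above Dixon's 95% critical value. In control cortex Col5a1 was at 6.88 in rat 1, with the next control array at 6.64, and this gap was also above that value. In all 40 groups were examined in this way, of which chance would mark about 1 in 20. Arrays of a scan group are not independent, and the critical value does not allow for this. For Loxl4, which was called in neither tissue, every informative lithium cortex array lay above the control mean of cortex and every lithium medulla array below the control mean of medulla. In cortex the lowest of them, of rat 6, was at 5.86 against a control mean of 5.82, and in 1 scan group the difference was -0.09. The difference, -1.96 on the log2 scale, was tested as an interaction (adjusted p = 0.227 by limma) and did not pass.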

How the results depend on the processing

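No alternative called any of the 8 genes tested in cortex. In medulla 2 of the 10 (Col8a1, Loxl4) were called without scan group, of which Col8a1 had passed the filter only through lithium arrays, 3 (Loxl2 as well) without scan group and lithium rat 6, an alternative chosen after seeing the data, and 1 (Loxl4) by the methods' t-test (unadjusted p under 0.05 and fold change over 1.5, in either direction). Leaving out 1 rat gave 0 to 1 (Loxl4, without control rat 29). All clusters called in cortex, 79, were 288 without scan group, 264 without it and rat 19 (chosen after seeing the data), 296 by the methods' t-test after Benjamini-Hochberg and 163 at its unadjusted threshold, and ranged from 34 to 92 as each rat was left out. Those in medulla, 190, were 1052 without scan group, 2026 without it and rat 6, and 650 and 651 by the t-test. They ranged from 50 (without lithium rat 21) to 1053 (without lithium rat 6). Of the 190, 133 were higher in lithium, against 533 of 1052 without scan group, and with each array centred the share of higher calls in medulla was 51.3%. The tissue difference had 11 clusters called, 274 without scan group (with Loxl4, 1 of the 8 genes), 7 with centred arrays and from 3 to 34 as each rat was left out. With the rat as a replicate block it was again 11, the Loxl4 difference was -1.98, its adjusted p was 0.125, and the block changed no call of the 10 genes.

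Directions in cortex turned as single rats were left out for Col1a1 (-0.14 to 0.45), Col1a2 (-0.06 to 0.43), Col3a1 (-0.10 to 0.44), Col5a1 (-0.01 to 0.17), Col5a2 (-0.09 to 0.12) and Loxl2 (-0.07 to 0.25), each at its lowest without rat 19. Without scan group and rat 19, Col1a1 was at -0.02, Col5a2 at -0.05 and Loxl2 at -0.01, but Col1a2 at 0.04, Col3a1 at 0.01 and Col5a1 at 0.02. The tissue difference ranged from -0.37 to 0.14 for Col1a2 and from -0.17 to 0.37 for Col3a1 as each rat was left out, and for Col3a1 it was -0.0017 with centred arrays. The cause of these changes was not tested. No other cluster stood for any of the 10 genes, so that alternative gave no value. Low signal limits Lox, Col8a1 and Loxl2 in cortex, where Col5a2 and Loxl4 also lay near the filter value.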
